A study of Mus musculus with 6 samples.

Results

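The 10 genes described here encode proteins of the late stages of neutrophil formation: the alarmins S100a8 and S100a9, the granule proteins Ngp, Ltf, Camp, Lcn2, Hp, Chil3 and Mmp8, and the small secreted protein Wfdc21. They were taken by symbol from the genes that the platform annotation names for a probe set of their own. All 10 had exactly 1 such probe set, among 30635 genes in all. For each of the 10 the mean over the 6 arrays lay above the level under which genes were left out as dim. Chil3 did so only through its values in the knockout group described below. Their values came from Affymetrix arrays of sorted Lineage- c-Kit+ Sca1+ (LSK) cells of mouse bone marrow, the fraction that holds blood stem cells and the earliest progenitors. The knockout group was 3 samples from miR-21flox/flox:Mx1-Cre+ mice and the control group 3 samples from miR-21flox/flox:Mx1-Cre- littermates. Both groups carried the floxed alleles and were given 7 doses of 250 μg pIpC, which raises interferon, from an age of 4 to 6 weeks, and LSK cells were sorted 4 weeks after that. The Mx1 promoter that drives Cre answers to interferon in many cell types, so the deletion is not limited to blood cells, and effects of Cre itself cannot be told apart from those of the deletion. How many mice stand behind a sample is not given in the labels, so p-values measure the spread between these arrays, which may in part be technical.

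Neutrophil granules are filled in a fixed order as the precursor matures. Azurophil granules, with myeloperoxidase and serine proteases, form first at the promyelocyte stage. Specific granules, with lactoferrin and cathelicidin, form at the myelocyte stage under the transcription factor C/EBPε, and gelatinase granules and secretory vesicles follow in later precursors. S100a8 and S100a9 form the calprotectin dimer, which lies in the cytosol and not in a granule, and which acts as an alarm signal when cells release it. None of these proteins is a defining product of stem cells, and mature neutrophils carry lineage antigens that the sort selected against.

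Promoter sequence was looked at for the letters that C/EBP factors are known to bind, since the genes moved together. The RefSeq promoter table (GRCm38.p6) held 8 of the 10 genes. The motif TTGCNNAA, read on both strands (TTNNGCAA on the other), lay in the 250 bases before the start of 5 of these 8, which were Lcn2, S100a9, Mmp8, Ngp and Ltf. Over all 32851 promoter windows of that length, 9.56% held it. The PU.1 letters GAGGAAG, read on both strands, lay in 3 of the 8, S100a8, Lcn2 and Mmp8, against 10.6% of all windows, and no such match overlapped one of the C/EBP letters. A match is a description of the letters and does not show that a factor binds. The 5 windows with the C/EBP letters are printed with the match in capitals, together with that of S100a8, the gene with the highest change among the 10, which had none.
Ngp promoter, chr9:110419558-110419807, plus strand: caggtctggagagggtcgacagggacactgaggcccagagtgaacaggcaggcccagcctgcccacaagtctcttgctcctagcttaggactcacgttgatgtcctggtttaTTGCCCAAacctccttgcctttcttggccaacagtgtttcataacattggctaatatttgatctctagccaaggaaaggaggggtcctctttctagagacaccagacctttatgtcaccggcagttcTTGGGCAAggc
Ltf promoter, chr9:111019042-111019291, plus strand: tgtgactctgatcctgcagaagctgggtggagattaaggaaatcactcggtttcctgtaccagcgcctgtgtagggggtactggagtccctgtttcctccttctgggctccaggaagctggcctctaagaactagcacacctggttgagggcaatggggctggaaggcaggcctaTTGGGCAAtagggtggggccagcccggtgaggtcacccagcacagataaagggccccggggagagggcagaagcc
Lcn2 promoter, chr2:32387740-32387989, minus strand: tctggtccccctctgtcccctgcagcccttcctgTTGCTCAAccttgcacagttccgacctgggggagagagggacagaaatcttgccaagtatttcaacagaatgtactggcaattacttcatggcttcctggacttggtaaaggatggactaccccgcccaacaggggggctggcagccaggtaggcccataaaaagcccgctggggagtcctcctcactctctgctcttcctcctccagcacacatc
Mmp8 promoter, chr9:7558179-7558428, plus strand: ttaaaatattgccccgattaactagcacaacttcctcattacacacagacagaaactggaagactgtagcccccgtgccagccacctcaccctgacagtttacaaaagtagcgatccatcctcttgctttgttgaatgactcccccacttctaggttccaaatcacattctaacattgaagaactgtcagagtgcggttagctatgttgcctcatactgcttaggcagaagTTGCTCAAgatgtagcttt
S100a9 promoter, chr3:90695722-90695971, minus strand: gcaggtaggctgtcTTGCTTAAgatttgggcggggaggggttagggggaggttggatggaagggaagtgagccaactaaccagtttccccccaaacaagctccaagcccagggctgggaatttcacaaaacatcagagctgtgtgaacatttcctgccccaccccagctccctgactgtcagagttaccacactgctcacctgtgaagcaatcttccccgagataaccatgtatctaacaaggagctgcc
S100a8 promoter, chr3:90668821-90669070, plus strand: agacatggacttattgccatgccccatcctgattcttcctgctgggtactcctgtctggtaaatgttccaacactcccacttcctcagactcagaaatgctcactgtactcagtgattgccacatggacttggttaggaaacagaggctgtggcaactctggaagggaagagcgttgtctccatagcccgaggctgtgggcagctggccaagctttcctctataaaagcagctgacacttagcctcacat
In Ngp the letters stood at 138 to 131 and at 11 to 4 bases before the start, in Ltf at 75 to 68, in Lcn2 at 216 to 209, in Mmp8 at 19 to 12 and in S100a9 at 236 to 229.

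The deleted microRNA, whose guide strand is shown with its seed in capitals, is at chr11:86584120-86584141 on the minus strand.
mmu-miR-21a-5p: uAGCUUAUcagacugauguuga
The only probe set that names its gene also covers the host gene Vmp1. It was at log2 values of 5.64 to 5.76 on the knockout arrays and 5.60 to 5.65 on the control arrays, and since it spans the host it does not check the deletion.

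In LSK cells of the knockout all 10 late granule and alarmin genes rose. Their changes, given throughout as knockout mean minus control mean of the log2 values (3 arrays each), ran from 0.75 for Chil3 to 2.38 for S100a8, with a median of 1.20. Over all 19016 genes tested the median change was 0.07, and 19.1% of genes passed as higher and 12.0% as lower at an adjusted p under 0.05 (limma, Benjamini-Hochberg over all genes tested). The 10 genes were picked with earlier results of these data known, so the count describes them and is no independent evidence. For each of the 10 the lowest knockout array lay above the highest control array, which held in the same direction for 30.9% of all genes tested. Of the 85 genes that passed with a rise of at least 2-fold, 8 were among the 10. The arrays measure RNA of a mixed sorted population, so a larger number of cells that express these genes and more of their RNA per cell cannot be told apart.

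**Figure D1:**
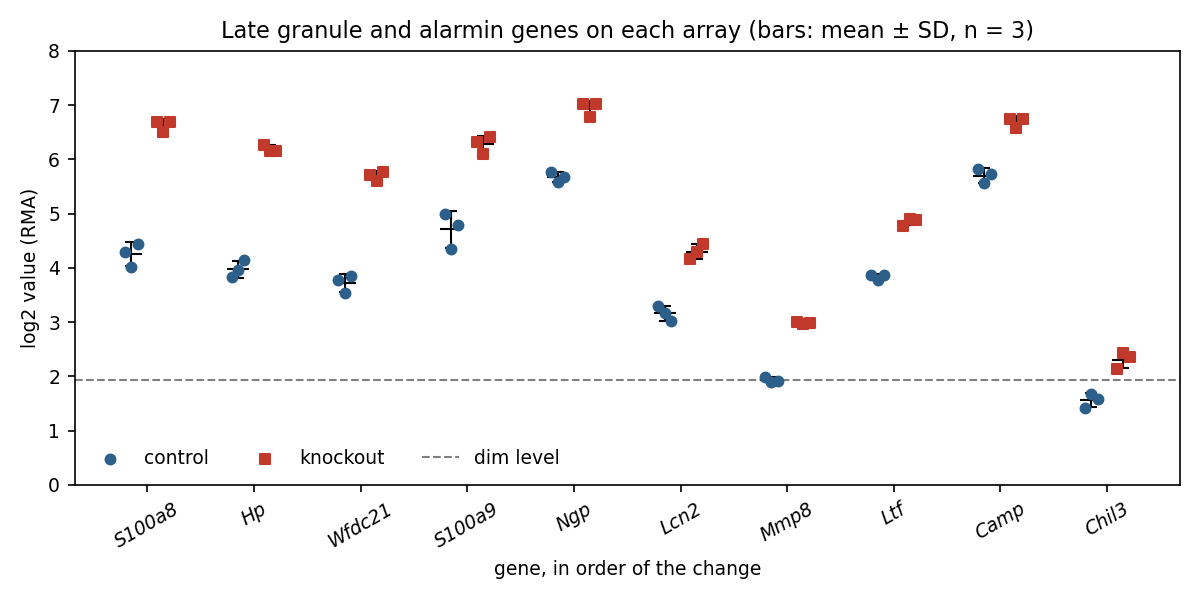
Log2 values of the 10 genes on each of the 3 control arrays (circles) and 3 knockout arrays (squares), with group mean and SD as bars and the dim level of 1.92 as a dashed line. For every gene the knockout points lie above the control points, and Chil3 and Mmp8 lie lowest.

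The alarmin genes are neighbours in the genome and encode the partners of calprotectin. S100a8 was at 6.69, 6.51 and 6.69 on the knockout arrays (replicates 1, 2 and 3) and at 4.29, 4.01 and 4.44 on the control arrays. That is a rise of 2.38 ± 0.11 (SE, 5.20-fold, limma adjusted p = 2.42e-06), the seventh highest change of all genes tested. S100a9 read 6.33, 6.09 and 6.40 in the knockout and 4.99, 4.34 and 4.79 in control, and rose by 1.57 ± 0.15 (SE, 2.96-fold, limma adjusted p = 1.19e-04). Control replicate 2 was the lowest control array for both genes, and knockout replicate 2 the lowest knockout array. The sizes of the partners' changes were compared, although different probe sets need not respond on the same scale. The 95% interval of the change was 2.14 to 2.62 for S100a8 and 1.23 to 1.91 for S100a9. Taken within each array, S100a8 minus S100a9 was between 0.29 and 0.42 on the knockout arrays and between -0.70 and -0.33 on the control arrays. The exact two-sided permutation p of this difference was 0.1, the smallest that 3 against 3 arrays allow, and 0.141 adjusted over the 45 pairs that the 10 genes form.

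Haptoglobin (Hp), which binds free haemoglobin and is stored in specific granules, stood next to S100a8 in size. It read 6.26, 6.15 and 6.16 in the knockout and 3.82, 3.96 and 4.14 in control, a rise of 2.22 ± 0.08 (SE, 4.65-fold, limma adjusted p = 9.55e-07). Wfdc21, a small protein with a WAP domain whose place in the granule order is not settled here, was at 5.72, 5.59 and 5.76 in the knockout and 3.77, 3.53 and 3.85 in control. Its rise was 1.97 ± 0.09 (SE, 3.93-fold, limma adjusted p = 2.40e-06). The 95% intervals of S100a8, Hp and Wfdc21 overlapped one another. Within each array, S100a8 minus Wfdc21 was 0.91 to 0.97 in the knockout and 0.47 to 0.60 in control, without overlap (exact two-sided permutation p = 0.1, or 0.141 adjusted over the 45 pairs), whereas the differences of Hp from either overlapped between the groups.

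The other specific granule genes formed a lower and narrower band. Ngp, a granule protein of the cathelicidin family, was at 7.01, 6.78 and 7.01 in the knockout and 5.76, 5.57 and 5.67 in control, and rose by 1.27 ± 0.08 (SE, limma adjusted p = 1.25e-05). Lipocalin 2 (Lcn2), which binds the iron carriers of bacteria, was at 4.16, 4.29 and 4.44 in the knockout and 3.29, 3.17 and 3.02 in control, and its change was 1.13 ± 0.09 (SE, 2.20-fold). Lactoferrin (Ltf), which binds iron itself, read 4.77, 4.91 and 4.88 in the knockout and 3.87, 3.77 and 3.87 in control, a rise of 1.02 ± 0.06 (SE, 2.02-fold). Both groups were tight for Ltf, with an SD of 0.07 in the knockout and 0.05 in control. Camp, the precursor of the cathelicidin antimicrobial peptide, was at 6.75, 6.58 and 6.75 in the knockout and 5.82, 5.56 and 5.73 in control, a rise of 0.99 ± 0.08 (SE, 1.99-fold). Lcn2, Ltf and Camp passed with limma adjusted p-values of 4.28e-05, 1.01e-05 and 4.87e-05.

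Mmp8 and Chil3 were close to the dim level of 1.92, the median of all probe sets, so the sizes of their changes are uncertain. Mmp8, the neutrophil collagenase, was at 3.0, 2.96 and 2.99 in the knockout and 1.99, 1.90 and 1.92 in control, a rise of 1.05 ± 0.06 (SE, limma adjusted p = 5.00e-06). Chil3 (Ym1), a chitinase-like lectin, was at 2.13, 2.43 and 2.36 in the knockout and 1.42, 1.67 and 1.58 in control, and rose by 0.75 ± 0.09 (SE, limma adjusted p = 5.55e-04). All control values of Chil3 lay under the dim level, so it entered the test only through its knockout values. Its close relative Chil4 was dim, with means of 1.09 in the knockout and 0.96 in control, and the probe sets of such near copies can share signal.

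When the 10 genes were put in order of their changes, the 95% intervals of each gene and the next overlapped, from S100a8 down to Chil3. Of all 45 pairs of genes, 25 had intervals that did not overlap, and in 32 pairs the within-array difference separated the groups. The pairs reuse the same genes and arrays, and no such share was computed over pairs of other genes. Since different probe sets need not respond on the same scale, these counts are only a description. The changes of the related genes Ngp and Camp differed by 0.28. Ngp minus Camp was 0.20 to 0.27 on the knockout arrays and -0.06 to 0.02 on the control arrays, and the exact two-sided permutation test gave p = 0.1, the smallest possible.

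Stage of granule formation was then set beside size of change. Of 9 azurophil granule genes, 8 were tested and 6 rose, with a median change of 1.08 and a range of -0.04 to 2.06. Over all genes tested 19.1% passed as higher. For the 7 specific granule genes among the 10, all of which rose, the median was 1.05 and the range 0.75 to 2.22. Without Hp these ran only up to 1.27. The pair of cytosolic alarmins had a median of 1.97. The closeness of the azurophil and specific granule medians depends on the genes listed. For the azurophil enzymes Mpo, Elane, Prtn3, Ctsg and Prss57 alone, the median was 1.53, against 1.03 for the 6 specific granule genes without Hp. Both subsets were formed with the values known. The first leaves out the lowest azurophil genes tested and the other the highest specific granule gene. The gap between their medians therefore follows in part from that choice. Specific granule genes outside the 10 had a median of 0.33. These medians are a description, and the stages were not tested against one another.

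Among the azurophil genes, neutrophil elastase (Elane) was at 9.07, 9.08 and 9.0 on the knockout arrays and 7.21, 6.98 and 6.77 on the control arrays, and rose by 2.06 ± 0.10 (SE, limma adjusted p = 3.37e-06). The proteases Ctsg (1.71), Prtn3 (1.53) and Prss57 (1.19) and myeloperoxidase (Mpo, 0.97) rose as well. The other 3 genes tested had smaller values. Ctsc, the enzyme that activates the granule proteases, rose by 0.25 (limma adjusted p = 0.0173), but its call was lost without knockout replicate 1 (0.22), knockout replicate 3 (0.23) or control replicate 2 (0.23). The proteoglycan serglycin (Srgn), which packs granule contents, was at -0.04 (limma adjusted p = 0.647), and the membrane protein Cd63 at 0.17 (limma adjusted p = 0.0728, or 0.21 and 0.0383 without control replicate 3). Bpi was dim.

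**Figure D2:**
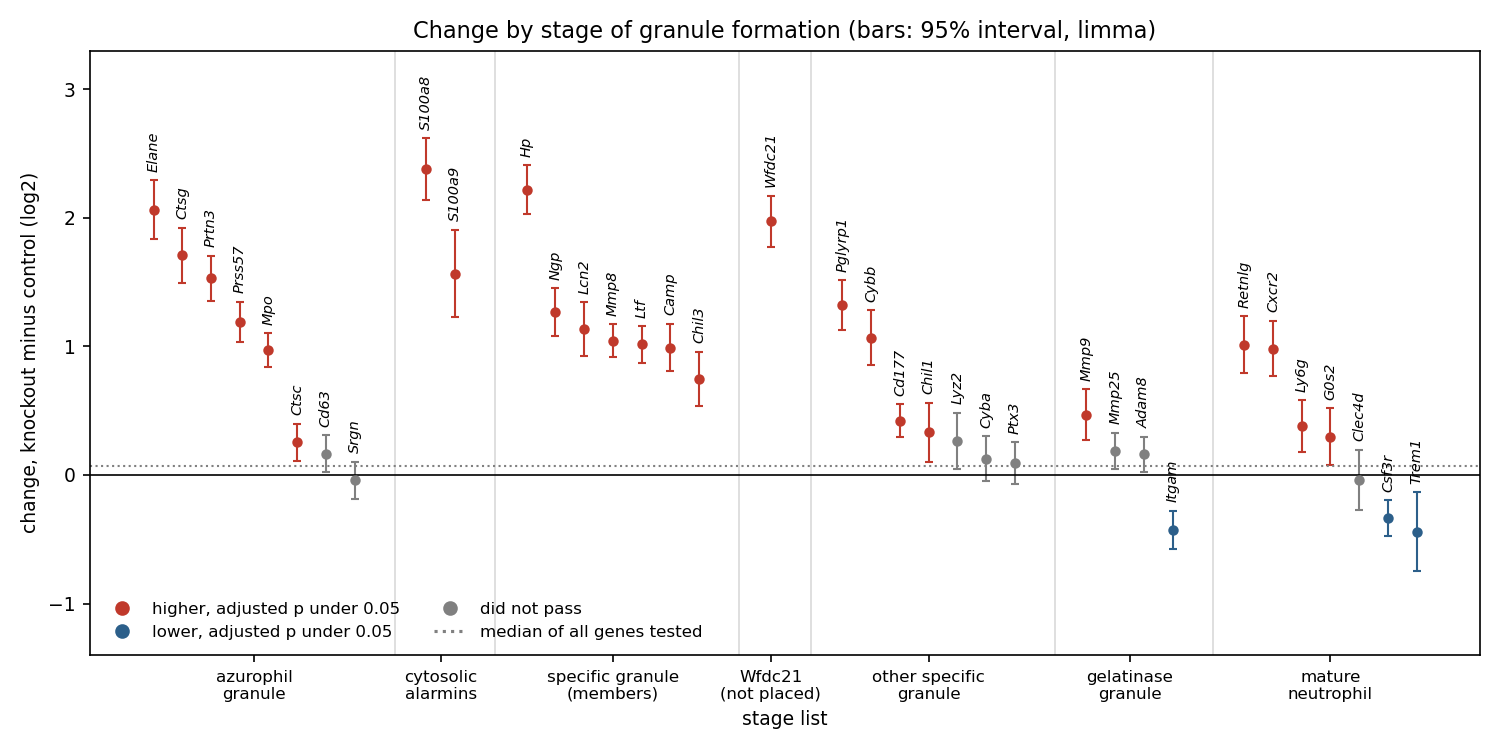
Change in log2 value (knockout minus control) of single genes, grouped by stage list, with the 95% limma interval as bars and colour for the call. The 10 genes (cytosolic alarmins, specific granule members and Wfdc21) lie between 0.75 and 2.38, while the gelatinase granule genes lie between -0.43 and 0.47.

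Specific granule genes outside the 10 ranged from 0.09 to 1.32. Of 9 listed, 7 were tested and 4 rose, at the median given above, beside 19.1% of all genes tested that passed as higher. The peptidoglycan recognition protein gene Pglyrp1 rose by 1.32 (limma adjusted p = 1.31e-05) and Cybb, the large subunit of the phagocyte oxidase, by 1.07 (limma adjusted p = 7.32e-05). The control mean of Cybb, 2.34, was near the dim level. The surface protein Cd177 rose by 0.42. Cyba, the small oxidase subunit, and Ptx3, a pattern recognition protein, were at 0.13 and 0.09 and did not pass. Lysozyme (Lyz2), found in all granule types, was at 0.27 with a limma adjusted p of 0.0631, which was 0.0307 after a second quantile normalization. It also passed as higher with a stricter dim filter (0.27), array weights (0.31) or a replicate block (0.27). The same held without knockout replicate 2 (0.33) or control replicate 1 (0.34). Olfm4 was dim, at means of 1.45 and 1.28, and Slpi had no probe set of its own.

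The lists of later stages had lower medians of change, but the lists also differed in level. Median control values were 6.53 for the azurophil genes and 3.84 for the 7 specific granule genes among the 10. They were 3.21 for the other specific granule genes, 3.04 for gelatinase granule genes and 3.38 for mature neutrophil genes. Effects of stage and of level on the size of change cannot be told apart here. Of 4 gelatinase granule genes, 1 rose and 1 fell, with a median of 0.17, and beside the shares of 19.1% and 12.0% over all genes tested such a count says nothing about the stage. Gelatinase itself (Mmp9) rose by 0.47 (limma adjusted p = 0.00426) and the integrin Itgam fell by 0.43 (limma adjusted p = 0.00176). After a second quantile normalization 3 of the 4 rose, since Mmp25 (0.18) and Adam8 (0.19) then passed. Of 10 genes of mature neutrophils, 7 were tested, 4 rose and 2 fell, with a median of 0.30. The secreted Retnlg rose by 1.01 and the chemokine receptor Cxcr2 by 0.98. Ly6g, the surface antigen used to define mature mouse neutrophils, rose by 0.38. The means of Ly6g were 2.61 in the knockout and 2.23 in control, near the dim level. Retnlg, with a control mean of 2.33, was also near it in control. The G-CSF receptor Csf3r fell by 0.34. The other calls in this list, G0s2 at 0.30 and Trem1 at -0.44, were each lost in 5 of the 6 fits that left out an array. G0s2 was at 0.22 to 0.34 in the fits that lacked knockout replicate 1 or 2 or any of the control arrays. Trem1 was at -0.49 to -0.27 in those that lacked knockout replicate 2 or 3 or any of the control arrays. Both calls were also lost with no dim filter. The call on G0s2 was lost with a replicate block or centring on the median of the genes tested, and that on Trem1 with array weights.

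Transcription factors of granulocyte formation also moved. Of 10 listed, 9 were tested, 5 rose and 2 fell, beside shares of 19.1% and 12.0% over all genes tested. Cebpe, which specific granule formation depends on, was at 3.91, 3.67 and 3.91 in the knockout and 2.56, 2.98 and 3.15 in control, a rise of 0.93 ± 0.14 (SE, limma adjusted p = 0.00131). Cebpa, needed earlier for commitment to the granulocyte and monocyte lineage, rose by 0.85 (limma adjusted p = 6.42e-05), and Cebpd by 0.44. Gfi1, a repressor that favours neutrophils over monocytes, rose by 0.38, and Irf8, which favours monocytes, by 0.70. Klf4 fell by 0.77 and Lef1 by 0.31, while Cebpb (-0.14) and Runx1 (-0.12) did not pass.

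Relatives of the 10 genes in the same families were looked at as well, to be read against the 19.1% of all genes that passed as higher and the 12.0% that passed as lower. Of 14 other S100 genes, 11 were tested, and 4 passed as higher, with a median of 0.15 and a highest change of 0.57 for S100a1. Only 2 of these passed without control replicate 2, where S100a4 was at 0.24 and S100a6 at 0.25. S100a6 also lost its call without knockout replicate 1 (0.33), knockout replicate 3 (0.30) or control replicate 3 (0.30). S100a4 also lost its call without knockout replicate 3 (0.255). With each array centred on the median of the genes tested, S100a3 (-0.22) and S100a10 (-0.21) passed as lower. S100a3 also passed as lower with each array centred on its median (-0.19), after a second quantile normalization (-0.19) and with array weights (-0.18). S100g passed as higher with a replicate block (0.23) and without knockout replicate 3 (0.31). Of 5 WAP domain genes tested beside Wfdc21, 2 fell, and the highest change was 0.10. Wfdc17 fell by 0.64 (limma adjusted p = 3.80e-04) and Wfdc18 by 0.24, the latter lost without knockout replicate 3 (-0.24, limma adjusted p = 0.0519) or control replicate 1 (-0.20, limma adjusted p = 0.0509). Of 7 other chitinase family genes, 5 were dim. Chil1 (0.33) and Chid1 (0.20) passed. The call on Chil1 ended when knockout replicate 1, knockout replicate 2, control replicate 1 or control replicate 3 was left out (0.24 to 0.35). That on Chid1 ended in the same way for knockout replicate 1, knockout replicate 3, control replicate 2 and control replicate 3 (0.18 to 0.21). Neither passed with each array centred on the median of the genes tested (0.30 and 0.16), and Chil1 did not pass with no dim filter. Receptors and partners of the secreted proteins numbered 9, of which 6 were tested, with changes of -0.28 to 0.21. The lactoferrin receptor Lrp1 fell (-0.28). The calprotectin receptors Tlr4 (0.21) and Ager (0.08), the haemoglobin-haptoglobin receptor Cd163 (0.12) and the lipocalin receptor Slc22a17 (-0.14) did not pass.

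**Figure D3:**
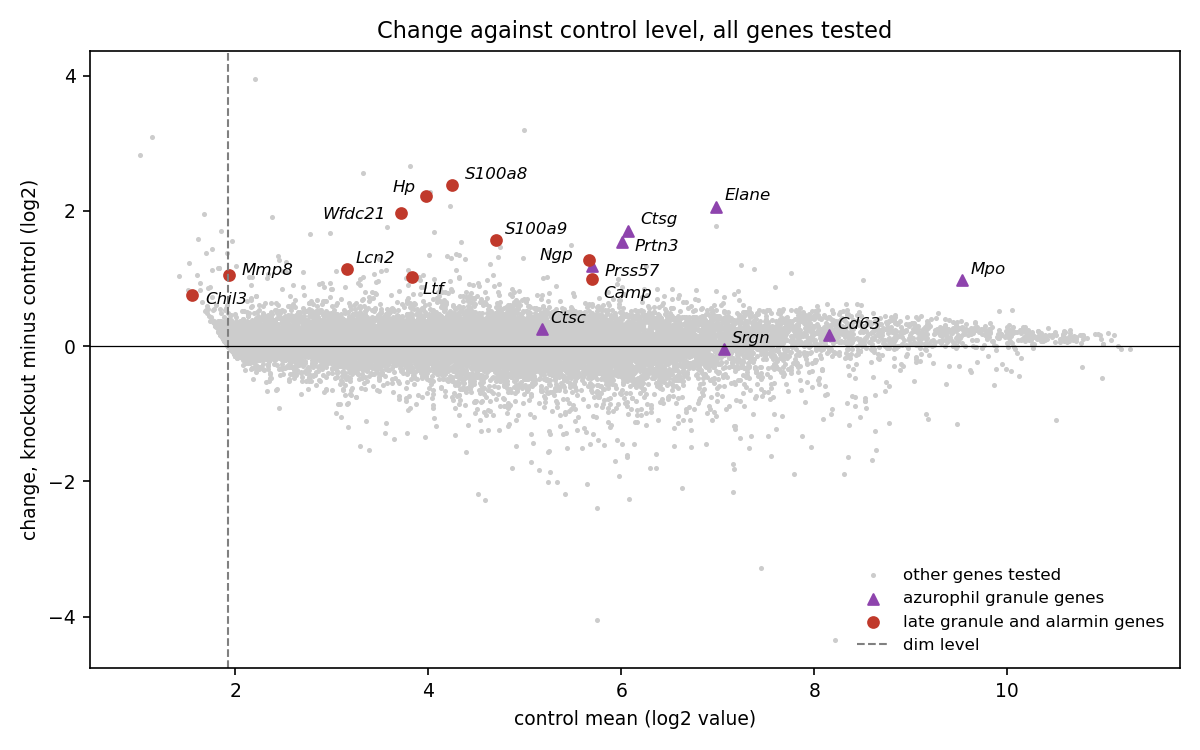
Change (knockout minus control, log2) against the control mean (log2 value) for the 19016 genes tested, with the 10 late granule and alarmin genes as circles, azurophil granule genes as triangles and the dim level as a dashed line. The 10 genes have control means of 1.56 to 5.70 and the azurophil genes of 5.18 to 9.53.

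Neighbours on the chromosome were looked at next. S100a8 and S100a9 lie side by side with no other protein-coding gene between them in RefSeq order, and Camp, Ngp and Ltf share a chromosome, with 8 protein-coding genes between Camp and Ngp and 20 between Ngp and Ltf. Of the 54 other genes that are among the 3 nearest protein-coding genes on either side of the 10, 33 were tested. Of these 6 passed as higher and 7 as lower, beside 19.1% and 12.0% of all genes tested, and the median change was 0.08. The next gene to Ltf, the chemerin-binding receptor gene Ccrl2, fell by 1.28 ± 0.09 (SE, limma adjusted p = 2.24e-05), from 3.47, 3.78 and 3.42 in control to 2.23, 2.30 and 2.30 in the knockout. Wfdc17 and Wfdc18, which fell, are the nearest genes on one side of Wfdc21. Beside Hp, Txnl4b rose by 0.65 (limma adjusted p = 5.26e-04). Ccrl2 and Txnl4b were picked after their values were seen.

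**Figure D4:**
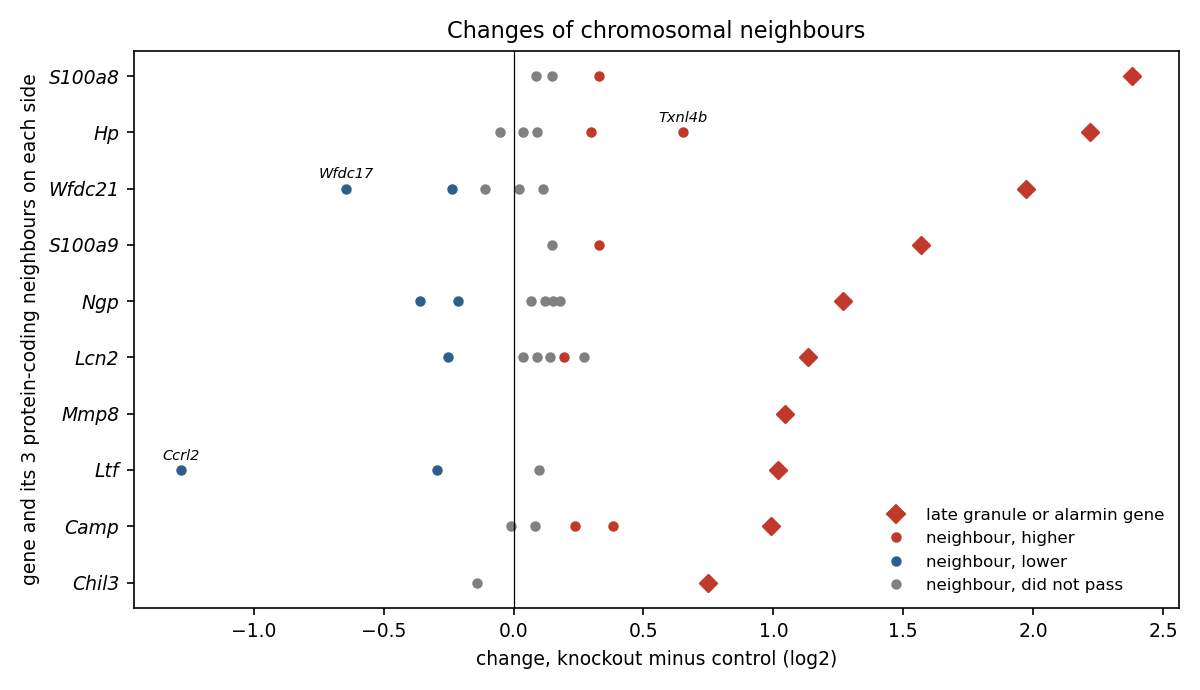
Change (knockout minus control, log2) of each of the 10 genes (diamonds) and of its tested protein-coding neighbours outside the 10, up to 3 on each side (circles, coloured by call). These neighbours lie between -1.28 and 0.65, below the gene they flank in each row, and Mmp8 has none that was tested.

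Genes with the most similar profile were taken as those with the smallest root mean square difference, over the 6 arrays, from the mean profile of the 10 genes after the control mean of each gene was subtracted. The 5 nearest were Clec2d (difference 0.05), Ccl9 (0.08), Ap3s1 (0.08), Prtn3 (0.09) and Mgam (0.09). Clec2d, a lectin-like surface protein, was at 6.27, 6.11 and 6.23 in the knockout and 4.85, 4.59 and 4.78 in control. The chemokine Ccl9 rose by 1.35, Ap3s1, a subunit of the adaptor that sorts proteins to lysosome-related organelles, by 1.37, and Mgam by 1.38, from a control mean of 1.92 just under the dim level. With 6 arrays in 2 groups, such a likeness mostly reflects a similar size of change.

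Markers of other cells moved on the same arrays. Their counts are to be read against the 19.1% of all genes tested that passed as higher and the 12.0% that passed as lower. Of 10 monocyte and macrophage markers, 9 had a probe set, 8 were tested and 7 rose, and the mean log2 value over the list was 4.93 to 5.04 on the knockout arrays and 4.24 to 4.29 on the control arrays. Ly6c2 rose by 1.77 and F13a1 by 1.76, Cd68 was at -0.16 and did not pass, and Adgre1 was dim. Ccr2 was among the 7, from a control mean of 1.83 under the dim level, so that it entered the test only through its knockout values. The count was 5 without knockout replicate 3, control replicate 2 or control replicate 3, where Mpeg1 (0.28 to 0.33) and Cx3cr1 (0.24 to 0.27) did not pass. Mpeg1 also lost its call without knockout replicate 1 (0.33) and Cx3cr1 without knockout replicate 2 (0.22). For basophil and mast cell markers 4 of 6 tested rose, among them Fcer1a from a control mean of 1.70 under the dim level, and for eosinophil markers 3 of 4. The means over the basophil and mast cell list were 3.80 to 3.98 against 3.24 to 3.27, and those over the eosinophil list 2.85 to 2.91 against 2.59 to 2.65. Of 5 T and NK cell markers 2 rose, Nkg7 by 0.53 (limma adjusted p = 4.82e-04) and Klrb1c by 0.55 (limma adjusted p = 6.34e-04), the latter from a control mean of 1.85 under the dim level, and the median was 0.12. The median changes of the B cell, erythroblast and dendritic cell markers tested were 0.03, 0.02 and -0.0038, over only 5, 2 and 3 genes of 7 listed each. Among the B cell markers Cd79b rose (0.26) and Ebf1 fell (-0.19), and each call was lost in some fits that left out an array. The only dendritic cell call was Flt3, also listed for the sorted cells, which fell. With no dim filter 1 of 4 erythroblast and 1 of 7 dendritic cell markers passed as higher, so the medians do not show an absence of change. Among markers of the sorted cells, Kit, Cd34 and Flt3 had means of at least 7.58 in both groups, and 5 of 7 tested fell while 1 rose. Cd34 was at -0.16 and narrowly did not pass (limma adjusted p = 0.0501). It passed as lower in several other settings, such as a second quantile normalization (-0.24, limma adjusted p = 0.00772). The count of 5 stayed in the fits that left out an array. Kit was at means of 8.15 in the knockout and 8.61 in control and fell by 0.46. Hlf fell by 0.88 (limma adjusted p = 1.35e-05), Mecom by 0.48, Flt3 by 0.47 and Procr by 0.46, Slamf1 rose by 0.54, and Ly6a, the gene of Sca1, had no probe set of its own. The part of any of these in the rise of the late granule genes was not tested.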

How the data were processed

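Gene expression was measured on 6 arrays, 1 per sample, and the groups and replicate numbers came from the sample titles. The authors deposited 1 table of log2 values per probe set, and RMA is named in the submitters' processing notes. The log base was read as 2 from the range, which reached 11.5. The software version, the array build and any batch are not given in the sources used here. RMA as a method forces 1 distribution on all arrays, so a change shared by most transcripts is not visible. Array medians were 1.90 to 1.95. Precision is limited by the number of arrays, 3 per group.

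Of 65956 probe sets, 31088 named 1 gene in the platform annotation, 1662 several and 33206 none. Symbols were updated by Entrez ID through RefSeq (GRCm38.p6) for 842. The brightest probe set stood for a gene, and 11619 genes with a mean under 1.92, the median of all probe sets, were left out. The 19016 others were fitted with limma 3.58.1 in R 4.3.3 (lmFit, eBayes, two-sided), with Benjamini-Hochberg adjustment and a threshold of 0.05. The fit was tested on simulated data. The members and lists were chosen with earlier results of these data known. The genes named were the members, the genes of the stage, family, factor, receptor and marker lists, and the 5 of most similar profile. Alternatives changed the dim filter, scaling, probe set rule, weights, variance trend, pairing and replicates.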

Additional observations from a re-analysis of the deposited data

How the results depend on the processing

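All 10 late granule and alarmin genes kept their rise at an adjusted p under 0.05 in each of the 15 alternatives in which they were tested, the stricter dim filter (mean of at least 3.70) having left out Mmp8 and Chil3. Over the alternatives the change of S100a8 was 2.26 to 2.48, that of S100a9 1.38 to 1.71 and that of Chil3 0.68 to 0.84. With the stricter filter the median over the 8 genes left was 1.42, and with no dim filter the median of the azurophil genes, now 9, was 0.97, both because other genes were counted. Without 1 array at a time, the number of genes higher was 2323 (without knockout replicate 3) to 3094, against 3631 on all arrays, and at least 5 of the azurophil genes rose. Of the genes called, 61.5% were higher, and 50.4% when each array was centred on the median of the genes tested, an alternative chosen after seeing the data. With the replicate block 7170 genes passed against 5908. Deviations of same-numbered arrays correlated at 0.219, 0.333 and 0.09999 for replicates 1, 2 and 3, knockout replicate 3 correlated better with control replicate 1 (0.129), and the titles do not say that the numbers mark a shared litter or day, so the numbers were not taken as pairs. The block changed no call among the 10 genes. Levels near 1.92 limit what can be said of Mmp8 and Chil3.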

Other observations

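Replicate 2 of each group was the lowest array of its group for 7 of the 10 late granule and alarmin genes. Over all genes tested, knockout replicate 2 was lowest for 39.3% and control replicate 2 for 38.9%. After subtraction of each gene's control mean, the mean over the 10 genes was 1.43, 1.38 and 1.49 on knockout replicates 1, 2 and 3 and 0.05, -0.10 and 0.05 on control replicates 1, 2 and 3. Chil3 went the other way, with replicate 2 highest in both groups.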
